A study of Mus musculus with 9 samples.

Results

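The genes examined were the 4 fibroblast growth factor (FGF) receptor genes Fgfr1, Fgfr2, Fgfr3 and Fgfr4 and 5 FGF ligand genes of the mammary gland, Fgf1, Fgf2, Fgf7, Fgf10 and Fgf18. They were taken from the table of read counts by Ensembl identifier and symbol, and all 9 were present among the 35275 genes listed. RNA was sequenced from 9 mammary gland tumors of Brca1Co/Co;MMTV-Cre;p53+/- mice, 3 in each group. The first group received saline, the second free Talazoparib, a PARP inhibitor, by the intravenous route (i.v. TLZ), and the third the liposomal form of Talazoparib by the same route (NanoTLZ). Each Talazoparib dose was 0.33 mg/kg. Mice of each group were given 5 doses at 3 doses per week. Dosing began at a tumor diameter of 4 to 5 mm in the study's treatment methods, and its RNAseq results give 4 mm. The saline tumors carried the same alleles as the treated tumors. In this genotype the MMTV promoter drives Cre mainly in the mammary epithelium, where Cre recombines the conditional (Co) alleles of Brca1, and p53+/- leaves a single functional allele of the p53 gene. The study describes the tumors of a group as taken from different mice, and the labels do not give the age of the mice.

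FGF ligands are secreted proteins that bind tyrosine kinase receptors on the cell surface together with heparan sulfate, and the bound receptors signal through the adaptor FRS2 to the ERK cascade, which also turns on its own inhibitors of the Sprouty, Spred and DUSP families. In the developing mammary gland FGF10 and FGF7 are made by the stroma and act on the FGFR2-IIIb form of the epithelium, and loss of FGFR2 impairs the mammary placode and ductal branching. FGFR1 amplification and FGFR2 variants are known from human breast cancer.

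Each tumor had between 17538380 and 21194980 counts in all (median 19747343). Levels are given as CPM, the read counts scaled to a common library size with the TMM method of edgeR, and levels of different genes are compared only as CPM per kilobase (kb) of annotated exons. At this depth 3 counts, taken as the smallest level that can be shown, corresponded to 0.138 to 0.172 CPM, and this floor covers counting error only. Saline tumor 3 stood apart from the other tumors. Its Spearman correlations with the other 8 tumors, computed across the log2 CPM of 15821 genes, were 0.843 to 0.875, whereas those between any other pair of tumors were 0.900 to 0.970. Genes are not independent replicates, and these values only describe the tumors. Its level of the basal keratin gene Krt5 was 1849 CPM, against 2.30 to 72.9 CPM elsewhere. The tumor with the next lowest mean correlation was i.v. TLZ tumor 2, at 0.916, compared with 0.867 for saline tumor 3.

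The luminal keratin genes Krt8 and Krt18, which mark the epithelium of the gland, were high in every tumor, at 738 to 2623 CPM and 499 to 1867 CPM. The luminal keratin genes Krt19 and Krt7, named after their values were seen, were lowest in saline tumor 3, at 31.2 and 76.2 CPM, against 173 to 702 CPM and 540.4 to 1704 CPM in the other 8 tumors. The RNA came from whole tumors, and in such bulk RNA fewer cells of a type and less RNA per cell cannot be told apart.

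Fgfr1 was the main FGF receptor transcript of these tumors. Its mean over the 9 tumors was 57.9 CPM per kb, followed by Fgfr3 at 3.35, Fgfr2 at 1.68 and Fgfr4 at 0.386 CPM per kb. The lower means depend on single tumors. The mean of Fgfr2 was 0.360 and that of Fgfr4 0.215 CPM per kb without saline tumor 3, and that of Fgfr3 was 1.94 CPM per kb without saline tumor 2. Fgfr1 made up 60.3% to 98.4% of the summed receptor level per kb, with a median of 96.1%. It took the largest share in all 9 tumors. The 2 tumors with the lowest Fgfr1 share were saline tumor 2, where Fgfr3 made up 39.4%, and saline tumor 3, where Fgfr2 made up 14.5%. Among the other receptors the order changed from tumor to tumor, and the ranges of Fgfr2, Fgfr3 and Fgfr4 over the tumors overlapped.

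Ligand transcripts were scarce. The highest mean among the 5 ligands was 0.653 CPM per kb for Fgf1, followed by Fgf18 at 0.457, Fgf7 at 0.198, Fgf2 at 0.0813 and Fgf10 at 0.0166 CPM per kb. The mean of Fgf18 was 0.290 without i.v. TLZ tumor 2, and that of Fgf10 0.00945 CPM per kb without i.v. TLZ tumor 1. The ranges of Fgf1, Fgf18 and Fgf7 over the tumors overlapped. The summed receptor level per kb was 21.5 to 167 times the summed ligand level. Fgf1 took the largest share of the ligand sum in 8 of the 9 tumors. In i.v. TLZ tumor 2 Fgf18 made up 83.5% and Fgf1 2.79%.

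**Figure D1:**
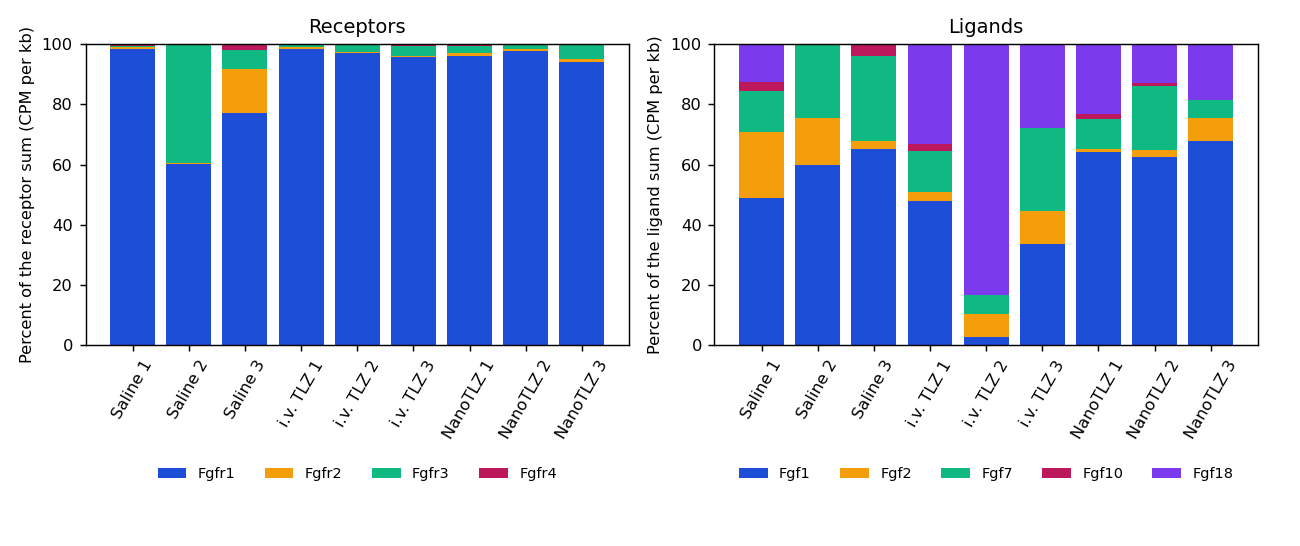
Stacked bars give each gene's percent of the summed level of the 4 receptors (left) and of the 5 ligands (right) in each of the 9 tumors, computed from CPM per kb of annotated exons. Fgfr1 fills most of every receptor bar, down to 60.3% in saline tumor 2, and Fgf18 takes 83.5% of the ligand bar of i.v. TLZ tumor 2.

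Fgfr1 (ENSMUSG00000031565, chr8:25518759-25575718, plus strand, GRCm38.p6) encodes the receptor that is widely made in mesenchymal cells and in many epithelial tumors. In the saline group its levels were 468, 221 and 639 CPM in tumors 1, 2 and 3. In the i.v. TLZ group they were 670.2, 1156 and 575 CPM, and in the NanoTLZ group 402, 422 and 592 CPM. The i.v. TLZ tumors lay mostly above the others, with i.v. TLZ tumor 2 highest of all, but the groups overlapped. The group means were 443 ± 210 CPM in saline, 800.2 ± 312 CPM in i.v. TLZ and 472 ± 105 CPM in NanoTLZ (SD, n = 3 each). In the edgeR fit the log2 fold change against saline was 0.85 for i.v. TLZ (adjusted p = 0.514), with an approximate standard error (SE) of 0.43. The SE was computed from the F statistic of the test. For NanoTLZ the log2 fold change was 0.09 (SE 0.43, adjusted p = 0.960). Without saline tumor 3 these estimates were 1.23 and 0.49, and without i.v. TLZ tumor 2 the i.v. TLZ estimate was 0.49. The NanoTLZ estimate was -0.23 without saline tumor 2 and -0.07 without NanoTLZ tumor 3. The direct difference of NanoTLZ from i.v. TLZ was -0.76 (SE 0.43, adjusted p = 0.9999 by edgeR).

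The high Fgfr1 level of i.v. TLZ tumor 2 was not shared by the genes beside it on the chromosome. Of 18 other tested genes within 500000 bases of Fgfr1, looked at after its values were seen, 0 were highest in this tumor, against 14.3% of all tested genes, and their levels there were 0.443 to 1.31 times the median of the other 8 tumors, compared with 2.22 times for Fgfr1.

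Fgfr2 (ENSMUSG00000030849, chr7:130162451-130266808, minus strand) encodes the receptor through which FGF7 and FGF10 act on epithelium. Its levels were 3.83, 0.858 and 126 CPM in saline tumors 1, 2 and 3, from 67, 18 and 2748 counts. They were 4.56, 4.81 and 2.43 CPM in the i.v. TLZ tumors and 4.48, 3.002 and 5.74 CPM in the NanoTLZ tumors. A single tumor, saline tumor 3, was high, at 21.95 times the next highest tumor and 30.3 times the median of the other 8. The treated tumors lay between 2.43 and 5.74 CPM and overlapped with the saline group. The group means were 43.6 ± 71.4 CPM in saline, 3.93 ± 1.30 CPM in i.v. TLZ and 4.41 ± 1.37 CPM in NanoTLZ (SD, n = 3 each). With all 9 tumors the edgeR log2 fold change of both treated groups against saline was -3.39 (SE 1.06, adjusted p = 0.284). Without saline tumor 3 it was 0.86 (adjusted p = 0.669), and the adjusted p ranged from 0.0962 to 0.669 over the alternatives run that gave one. DESeq2 gave Fgfr2 no adjusted p in the comparisons with saline. The same turn was seen for i.v. TLZ against saline, from -3.47 (SE 1.38) to 0.77, and for NanoTLZ against saline, from -3.30 (SE 1.37) to 0.95. NanoTLZ differed from i.v. TLZ by a log2 fold change of 0.16 (SE 1.28, adjusted p = 0.9999 by edgeR).

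The other tested genes near Fgfr2, looked at after its values were seen, were also highest in saline tumor 3. Of 3 such genes within 500000 bases, all 3 were above every other tumor there, as were 25.7% of all tested genes, Ate1 at 2.13 times, Tacc2 at 2.35 times and Nsmce4a at 4.48 times the median of the other tumors. These are smaller ratios than that of Fgfr2. Some of the basal epithelial markers were also highest in this tumor. The summed level of the list was 3810 CPM in saline tumor 3, and it was 1421 and 1005 CPM in saline tumors 1 and 2, 3089.7, 311 and 1209.9 CPM in the i.v. TLZ tumors, and 1298 CPM, 1334.5 CPM and 774 CPM in the NanoTLZ tumors. Of the 8 basal markers, Krt5, Krt15, Krt17, Trp63 and Oxtr, the last 4 chosen after their values were seen, were highest in saline tumor 3, while Krt14, the most abundant, was 802 CPM there and 2584 CPM in i.v. TLZ tumor 1. The contractile genes Acta2 and Mylk, the other 2 of the list, were 75.3 and 28.4 CPM in saline tumor 3 and highest in i.v. TLZ tumor 1, at 114 and 70.6 CPM. The defining markers Krt5 and Krt14 were above 0 in every tumor. The part of basal cells in the Fgfr2 level was not tested.

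Fgfr3 (ENSMUSG00000054252, chr5:33721724-33737068, plus strand) encodes a receptor best known as a brake on bone growth and as an oncogene of the bladder. It varied widely within the saline group. The levels were 0.801, 105 and 38.4 CPM in saline tumors 1, 2 and 3, a 131-fold range from 14 to 2204 counts. They were 4.36, 20.1 and 13.9 CPM in the i.v. TLZ tumors and 6.84, 4.58 and 21.99 CPM in the NanoTLZ tumors. All 6 treated tumors fell between the lowest and the second saline tumor. The means were 48.1 ± 52.8 CPM in saline, 12.8 ± 7.91 CPM in i.v. TLZ and 11.1 ± 9.47 CPM in NanoTLZ (SD, n = 3 each). The edgeR log2 fold change of both treated groups against saline was -2.01 (SE 0.96, adjusted p = 0.403), and it was -2.14 without saline tumor 3 and -0.71 without saline tumor 2. For i.v. TLZ alone it was -1.91 (SE 1.20, adjusted p = 0.583) and for NanoTLZ alone -2.11 (SE 1.20, adjusted p = 0.601 by edgeR). Without saline tumor 2 these values were -0.62 and -0.81, and the NanoTLZ value was -3.05 without NanoTLZ tumor 3. NanoTLZ and i.v. TLZ differed by -0.20 (SE 1.16, adjusted p = 0.9999), and this estimate turned to 0.29 without i.v. TLZ tumor 2, 0.06 without NanoTLZ tumor 1 and 0.19 without NanoTLZ tumor 2, and was -1.15 without NanoTLZ tumor 3.

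Fgfr4 (ENSMUSG00000005320, chr13:55152818-55168759, plus strand), the receptor for FGF15 and FGF19 in the liver, had the lowest mean of the receptors per kb, although it was above Fgfr3 in saline tumor 1 and above Fgfr2 in i.v. TLZ tumor 3. Its levels were 1.09, 0.0953 and 6.19 CPM in saline tumors 1, 2 and 3, 0.291, 1.20 and 1.73 CPM in the i.v. TLZ tumors and 0.963, 0.218 and 0.517 CPM in the NanoTLZ tumors. Saline tumor 3 was again the highest, at 3.58 times the next tumor, and the groups overlapped. The log2 fold change of both treated groups against saline was -1.65 (SE 0.95, adjusted p = 0.477 by edgeR), and it was 0.45 without saline tumor 3. For i.v. TLZ alone it was -1.20 (SE 1.15, adjusted p = 0.733), which turned to 0.89 without saline tumor 3, and for NanoTLZ alone -2.10 (SE 1.19, adjusted p = 0.5998 by edgeR), which was -0.00087 without that tumor and -2.71 without NanoTLZ tumor 1. Fgfr2 and Fgfr4 had the highest correlation of any pair among the 8 tested members (Pearson r = 0.790 over log2 CPM of 9 tumors), and both peaked in saline tumor 3. Over the 8 tumors without it r was 0.496, and other pairs were higher.

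The start regions of Fgfr2 and Fgfr4 are shown because these receptors peaked in the same tumor, and that of Fgf18 because it was the ligand with the largest estimates. RefSeq start regions of 300 bases, from 250 before to 50 after the start, were found for 7 of the 9 genes in the GRCm38.p6 table. The regions printed lie at chr7:130266759-130267058 (Fgfr2, minus strand), chr13:55152568-55152867 (Fgfr4, plus strand) and chr11:33147351-33147650 (Fgf18, minus strand). They are written along the strand of the gene, and capitals mark the GC box GGGCGG or its reverse complement.
Fgfr2: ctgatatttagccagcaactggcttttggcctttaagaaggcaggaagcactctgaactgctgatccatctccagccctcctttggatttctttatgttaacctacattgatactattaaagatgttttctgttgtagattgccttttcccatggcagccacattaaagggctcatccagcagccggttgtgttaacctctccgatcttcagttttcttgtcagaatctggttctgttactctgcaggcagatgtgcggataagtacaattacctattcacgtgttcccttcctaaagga
Fgfr4: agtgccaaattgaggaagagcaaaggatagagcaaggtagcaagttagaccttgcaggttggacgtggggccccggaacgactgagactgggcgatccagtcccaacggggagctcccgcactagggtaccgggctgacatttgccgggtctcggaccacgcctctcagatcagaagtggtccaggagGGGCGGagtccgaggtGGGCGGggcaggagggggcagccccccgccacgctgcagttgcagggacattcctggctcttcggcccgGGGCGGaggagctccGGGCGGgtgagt
Fgf18: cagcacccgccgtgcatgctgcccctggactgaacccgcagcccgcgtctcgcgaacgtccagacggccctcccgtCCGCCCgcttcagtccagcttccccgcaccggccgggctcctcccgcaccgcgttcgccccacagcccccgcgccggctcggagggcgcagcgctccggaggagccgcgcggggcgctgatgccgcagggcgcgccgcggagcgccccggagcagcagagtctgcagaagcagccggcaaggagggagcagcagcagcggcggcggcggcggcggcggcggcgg

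The region of Fgfr2 held 0 GC boxes, that of Fgfr4 4 and that of Fgf18 1. At least 1 GC box was found in 35.7% of 32851 start regions of the same length. The Fgf18 region was 78.7% G or C with 47 CpG pairs, the Fgfr4 region 65.3% with 20 and the Fgfr2 region 43.7% with 4, compared with medians of 52.7% and 7 over all regions. The E-box CANNTG, which reads alike on both strands, was found 3 times for Fgfr2, 2 times for Fgfr4 and 0 times for Fgf18, and in 72.3% of all regions. It overlapped no GC box in the regions printed. The TATA box TATAAA (13.6% of all regions), the AP-1 site TGANTCA (7.81%) and the cAMP response element TGACGTCA (1.79%) were found 0 times on either strand in all 3 regions. Such matches describe the letters only.

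Fgf18 (ENSMUSG00000057967, chr11:33116970-33147400, minus strand), a ligand of cartilage and bone growth that is also made in other mesenchyme, was the member for which no treated tumor overlapped with saline. In saline tumors 1, 2 and 3 it had 1, 0 and 0 counts. In the i.v. TLZ tumors it had 26, 39 and 7 counts, or 1.26, 2.13 and 0.379 CPM. In the NanoTLZ tumors it had 11, 4 and 6 counts, or 0.530, 0.218 and 0.310 CPM. All 6 treated tumors lay above all 3 saline tumors, as was the case for 2.81% of the 15821 tested genes, and the treated groups overlapped with each other. The 2 saline tumors at 0 allow up to 0.143 CPM in tumor 2 and 0.138 CPM in tumor 3. Fgf18 passed the filter on low counts only through the treated tumors.

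Scaled to library size, the summed counts of Fgf18 in i.v. TLZ were 77.4 times those in saline, with a 95% exact counting interval of 13.5 to 3100.5, from 72 counts against 1. The ratio was 23.0 in NanoTLZ, with an interval of 3.70 to 952, from 21 counts. These intervals cover counting error only, not the spread between tumors. The fitted edgeR log2 fold change, which depends on the prior count of the fit because saline had 1 count in all, was 5.75 for i.v. TLZ (SE 1.11, adjusted p = 0.275), 3.95 for NanoTLZ (SE 1.14, adjusted p = 0.552) and 4.85 for both treated groups (SE 1.07, adjusted p = 0.271). None of these passed an adjusted p of 0.05 in edgeR. Their SEs were computed from these estimates and so depend on the prior count too. DESeq2 on all 9 tumors called Fgf18 for i.v. TLZ (adjusted p = 0.00808) and for both treated groups (adjusted p = 0.0231), and DESeq2 on the groups compared only called it for i.v. TLZ (adjusted p = 0.0241). Over all alternatives the adjusted p ranged from 0.00808 to 0.581 for i.v. TLZ, from 0.0231 to 0.487 for both treated groups and from 0.182 to 0.901 for NanoTLZ, where DESeq2 on the groups compared only gave none. Without saline tumor 3 the fitted values were 5.27 for i.v. TLZ, 3.48 for NanoTLZ and 4.37 for both treated groups. Without saline tumor 1, which leaves saline with 0 counts, they were 7.65, 5.85 and 6.75, and without i.v. TLZ tumor 2 the i.v. TLZ value was 5.15. NanoTLZ differed from i.v. TLZ by a fitted log2 fold change of -1.81 (SE 0.81, adjusted p = 0.9999 by edgeR), which was -1.20 without i.v. TLZ tumor 2.

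Markers of fibroblasts and of cartilage were measured in the same tumors. The fibroblast list summed to 4492, 3782 and 2183 CPM in saline tumors 1, 2 and 3, to 8344, 10702 and 5150.4 CPM in the i.v. TLZ tumors and to 5145.4, 4851.5 and 3417 CPM in the NanoTLZ tumors. The 2 tumors with the most Fgf18 counts, i.v. TLZ tumors 2 and 1, had the 2 highest sums, but in i.v. TLZ tumor 2 the sum was mostly Fn1, the most abundant gene of the list, at 9705 CPM, while the defining collagen genes Col1a1 and Col1a2 were 446 and 306 CPM there, the lowest of the 9 tumors. All 10 fibroblast genes were tested, 10 had estimates above 0 for both treated groups, 2 had an unadjusted p under 0.05, against 13.1% of all tested genes, and 0 passed an adjusted p of 0.05 by edgeR. With saline tumor 3 left out 10 were above 0 and 0 had an unadjusted p under 0.05. DESeq2 on all 9 tumors also called 0, and on NanoTLZ and saline only it called 1, Pdgfra. Of the cartilage list, 8 of 10 genes were tested and 1, Col2a1, the collagen of cartilage, was called by edgeR in both treated groups against saline and in NanoTLZ against saline. DESeq2 on all 9 tumors called Col2a1 and Acan in these 2 comparisons and Col2a1 for i.v. TLZ against saline. DESeq2 on the groups compared only called Col2a1 and Acan higher and Snorc lower for i.v. TLZ, and Col2a1 and Acan higher for NanoTLZ. For both treated groups 4 of the 8 estimates were above 0 and 4 below, with 2 in each direction at an unadjusted p under 0.05, and 2 above and 1 below without saline tumor 3. The 2 below 0 were Hapln1 and Snorc, named after their values were seen. Hapln1 was 10.01, 0.286 and 0.413 CPM in saline and 0 to 0.673 CPM in the treated tumors, and Snorc was 8.41, 104 and 450.3 CPM in saline and 5.14 to 75.9 CPM in the treated tumors. The Col2a1 levels were 9.38, 14.2 and 21.3 CPM in saline, 191, 176 and 141 CPM in i.v. TLZ and 298, 628 and 799 CPM in NanoTLZ. Acan, the other defining marker, was 0.401 to 12.5 CPM in saline and 5.36 to 274 CPM in the treated tumors, which overlapped. The cartilage list summed to 792, 600.0 and 978 CPM in the saline tumors, to 633, 1025 and 647 CPM in the i.v. TLZ tumors and to 804, 1223 and 1605 CPM in the NanoTLZ tumors. Col2a1 was highest in NanoTLZ whereas Fgf18 was highest in i.v. TLZ. The part of these cell types in the Fgf18 level was not tested.

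Fgf1 (ENSMUSG00000036585, chr18:38838672-38929470, minus strand) encodes a ligand that binds all FGF receptors. Its levels were 1.03, 1.76 and 1.79 CPM in saline tumors 1, 2 and 3, 8.39, 0.328 and 2.11 CPM in the i.v. TLZ tumors and 6.74, 4.80 and 5.17 CPM in the NanoTLZ tumors. The 3 NanoTLZ tumors lay above all saline tumors, and the i.v. TLZ tumors held both the highest and the lowest value of the 9 tumors. The means were 1.53 ± 0.431 CPM in saline, 3.61 ± 4.23 CPM in i.v. TLZ and 5.57 ± 1.03 CPM in NanoTLZ (SD, n = 3 each). The log2 fold change of NanoTLZ against saline was 1.86 (SE 0.88, adjusted p = 0.563 by edgeR) and 2.01 without saline tumor 3. DESeq2 on these 2 groups only called Fgf1 (adjusted p = 0.0166), and the adjusted p ranged from 0.0166 to 0.901 over the alternatives. For i.v. TLZ against saline the estimate was 1.24 (SE 0.87, adjusted p = 0.621 by edgeR), and it was -0.33 without i.v. TLZ tumor 1. The difference between NanoTLZ and i.v. TLZ was 0.62 (SE 0.85, adjusted p = 0.9999 by edgeR), and it was 2.19 without i.v. TLZ tumor 1.

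The summed level of the leukocyte markers was also highest in the NanoTLZ tumors, and most of the sum in these tumors was Lyz2. The sum was 469, 2168 and 559 CPM in the saline tumors, 2337, 1379 and 2695 CPM in the i.v. TLZ tumors and 3885, 4177.5 and 3019 CPM in the NanoTLZ tumors. Of the 8 genes, 7 were tested, 7 had estimates above 0 in NanoTLZ against saline, 2 had an unadjusted p under 0.05, against 8.99% of all tested genes, and 0 passed an adjusted p of 0.05 by edgeR or DESeq2. The NanoTLZ tumors lay above all saline tumors for 2 of the 7, Cd68 and Lyz2, against 7.82% of tested genes, and Cd68 was named after its values were seen. Lyz2 was the most abundant, at 192 to 3641.5 CPM. For the defining markers the groups overlapped. Ptprc was 64.3, 86.4 and 13.8 CPM in saline, 66.1, 25.9 and 43.4 CPM in i.v. TLZ and 76.6, 51.9 and 91.7 CPM in NanoTLZ, and Cd3e was 0.0918 to 2.14 CPM in saline, 0.328 to 3.93 CPM in i.v. TLZ and 1.96 to 5.28 CPM in NanoTLZ. The part of leukocytes in the Fgf1 level was not tested.

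Fgf7 (ENSMUSG00000027208, chr2:126034658-126091185, plus strand), the keratinocyte growth factor, and Fgf10 (ENSMUSG00000021732, chr13:118714699-118792573, plus strand) are the stromal ligands of FGFR2-IIIb. Fgf7 was measured at 0.172, 0.429 and 0.459 CPM in saline tumors 1, 2 and 3, at 1.41, 0.437 and 1.03 CPM in the i.v. TLZ tumors and at 0.626, 0.982 and 0.259 CPM in the NanoTLZ tumors. The groups overlapped. Fgf7 had 3, 9 and 10 counts in the saline tumors, and it passed the filter on low counts only through treated tumors. By edgeR, i.v. TLZ differed from saline by a log2 fold change of 1.41 (SE 0.71, adjusted p = 0.513) and NanoTLZ by 0.79 (SE 0.71, adjusted p = 0.731), and without saline tumor 3 these values were 1.64 and 1.04. Fgf10 had 1, 0 and 2 counts in the saline tumors, 7, 0 and 0 in the i.v. TLZ tumors and 3, 1 and 0 in the NanoTLZ tumors. Its counts were too low for the filter of the edgeR fit, and it was not called by edgeR without the filter or by DESeq2, which gave it an adjusted p only for NanoTLZ against i.v. TLZ. With 14 counts over all tumors, 8 of the 9 tumors had 3 counts or fewer, and a difference between groups was not detectable at this depth.

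Fgf2 (ENSMUSG00000037225, chr3:37348477-37410106, plus strand), the basic FGF, was also near the limit of detection. Its levels were 0.572, 0.572 and 0.0918 CPM in saline tumors 1, 2 and 3, 0.679, 1.09 and 0.866 CPM in the i.v. TLZ tumors and 0.144, 0.218 and 0.724 CPM in the NanoTLZ tumors. The i.v. TLZ tumors lay above all saline tumors, and the NanoTLZ tumors overlapped with both groups. The edgeR log2 fold change against saline was 1.09 for i.v. TLZ (SE 0.79, adjusted p = 0.632) and -0.17 for NanoTLZ (SE 0.82, adjusted p = 0.960). Without saline tumor 3 these estimates were 0.63 and -0.62. The NanoTLZ estimate was above 0 without saline tumor 1 (0.15), saline tumor 2 (0.15), NanoTLZ tumor 1 (0.20) or NanoTLZ tumor 2 (0.11), and it was -1.12 without NanoTLZ tumor 3. Of 6782 exon bases of Fgf2, 640 are shared with Nudt6 on the opposite strand, and Nudt6 had 622 counts against 95 of Fgf2. Another 255 bases are shared with Gm43439 on the same strand, a gene for which no counts were listed. The strand setting of the counting was not given in the sources used here, so reads of the 2 genes over the shared bases could not be told apart, and the Fgf2 level is uncertain to that extent.

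**Figure D2:**
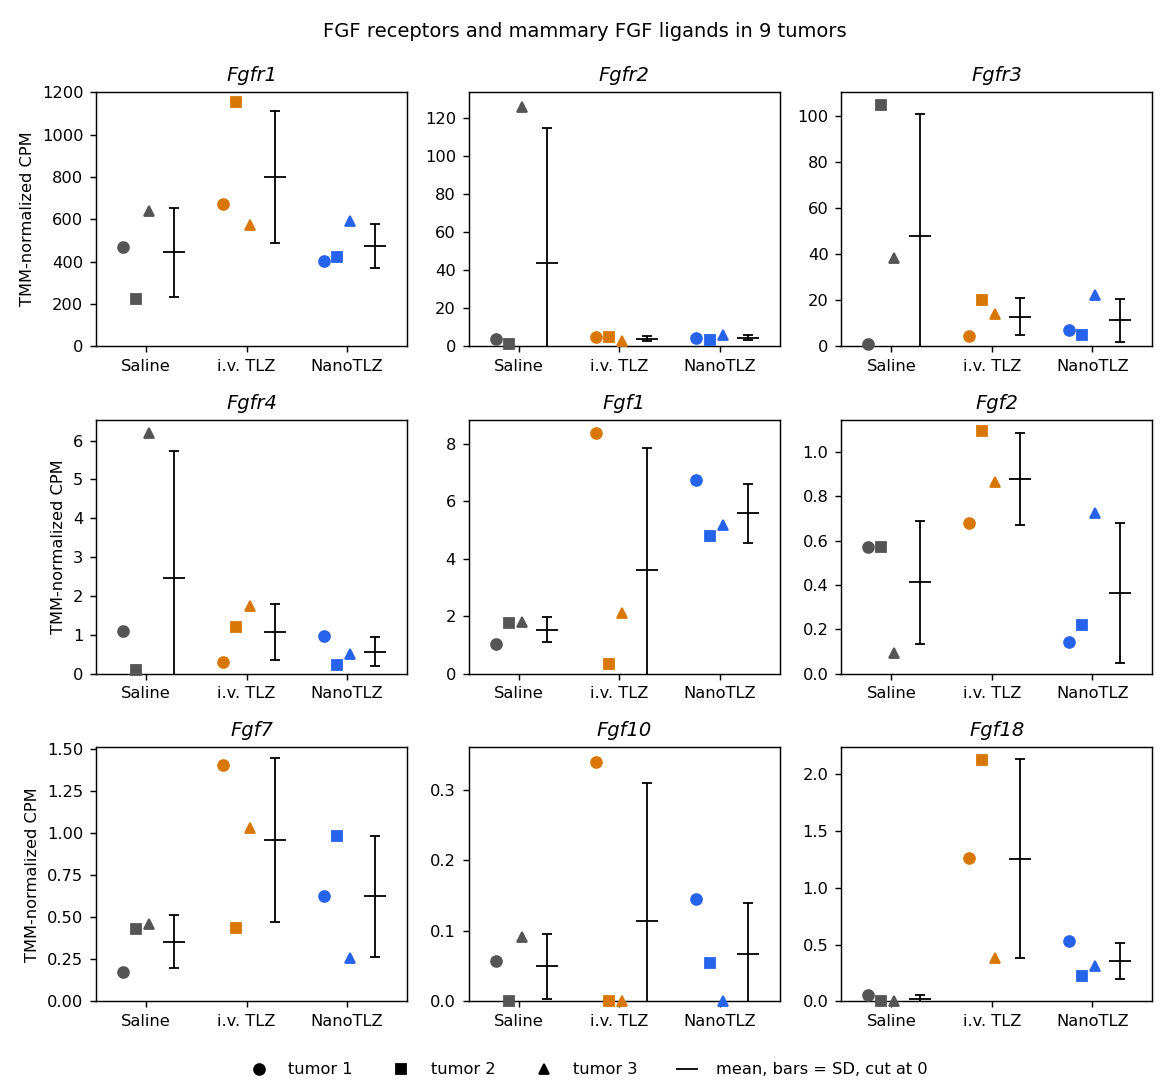
Each panel gives 1 gene as TMM-normalized CPM in the 9 tumors, with a symbol per tumor and, to its right, the group mean with the SD as a bar (n = 3, bars cut at 0). Fgfr2 is high in saline tumor 3 alone, at 126 CPM, and Fgf18 is above saline in all 6 treated tumors.

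Other members also overlap annotated genes. Fgfr1 shares 164 exon bases with the antisense gene Gm16159, which had 90 counts against 99864, and Fgf10 shares 123 bases with the antisense gene Gm16263, which had 1 count. Fgfr3 shares 998 bases with G630022F23Rik on the opposite strand, a gene for which no counts were listed, and Fgfr2 shares 314 bases with Ctbp2 on the same strand, which had 11824 counts against 3319 of Fgfr2. The share of 50-base words that a member's transcripts have in common with transcripts of another gene was 11.6% for Fgfr3, 10.9% for Fgf2, 2.47% for Fgfr2, 1.49% for Fgfr1 and 1.02% for Fgf10, and it was 0 for Fgfr4, Fgf1, Fgf7 and Fgf18. The members had 0 such words in common with each other. The read length was not given in the sources used here.

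In the comparison of i.v. TLZ with saline, which asks what free Talazoparib changed, Fgf18 was the member with the largest estimate and Fgfr2 the one with the lowest. By edgeR 0 of 8 tested members had an adjusted p under 0.05, against 0% of all 15821 tested genes, and 2 of 8, Fgf18 above and Fgfr2 below saline, had an unadjusted p under 0.05, against 10.4% (1643 genes). The i.v. TLZ tumors lay above all saline tumors for 2 of the 8, Fgf18 and Fgf2, against 5.99% of tested genes. Fgf18 passed the filter on low counts only through the treated tumors, so its place in these counts is not support for a difference. DESeq2 called 1 member, Fgf18, against 1.12% of genes on all 9 tumors and 0.534% on the groups compared only.

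For NanoTLZ against saline the same 2 members, Fgf18 above and Fgfr2 below saline, had an unadjusted p under 0.05, against 8.99% of tested genes (1423 genes), and 0 of 8 had an adjusted p under 0.05 by edgeR, against 0.00632% (1 gene, Col2a1). The NanoTLZ tumors lay above all saline tumors for Fgf18 and Fgf1, 2 of the 8, against 7.82% of tested genes. The same limit from the filter holds for Fgf18 here. DESeq2 called 0 members on all 9 tumors, against 0.712% of genes, and 1, Fgf1, on the groups compared only, against 1.05%.

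With both treated groups against saline 0 of 8 members were called by edgeR, against 0.019% (3 genes), and Fgf18 and Fgfr2 again had an unadjusted p under 0.05, against 13.1% (2072 genes). DESeq2 on all 9 tumors called 1 member, Fgf18, against 1.53% of genes. The comparisons with saline share the saline tumors, and all include Fgf18, which passed the filter only through the treated tumors. Setting NanoTLZ directly against i.v. TLZ, which asks whether the liposomal form differed from the free drug, gave 0 of 8 members with an adjusted p under 0.05 by edgeR, against 0% of all genes, and 0 of 8 with an unadjusted p under 0.05, against 1.68% (266 genes). DESeq2 called 0 members there on all 9 tumors, against 0.0119% of genes, and 0 on the groups compared only, against 0.127%. At 3 tumors a group these counts rest on few members, and a p that misses the threshold does not show that levels were alike.

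**Figure D3:**
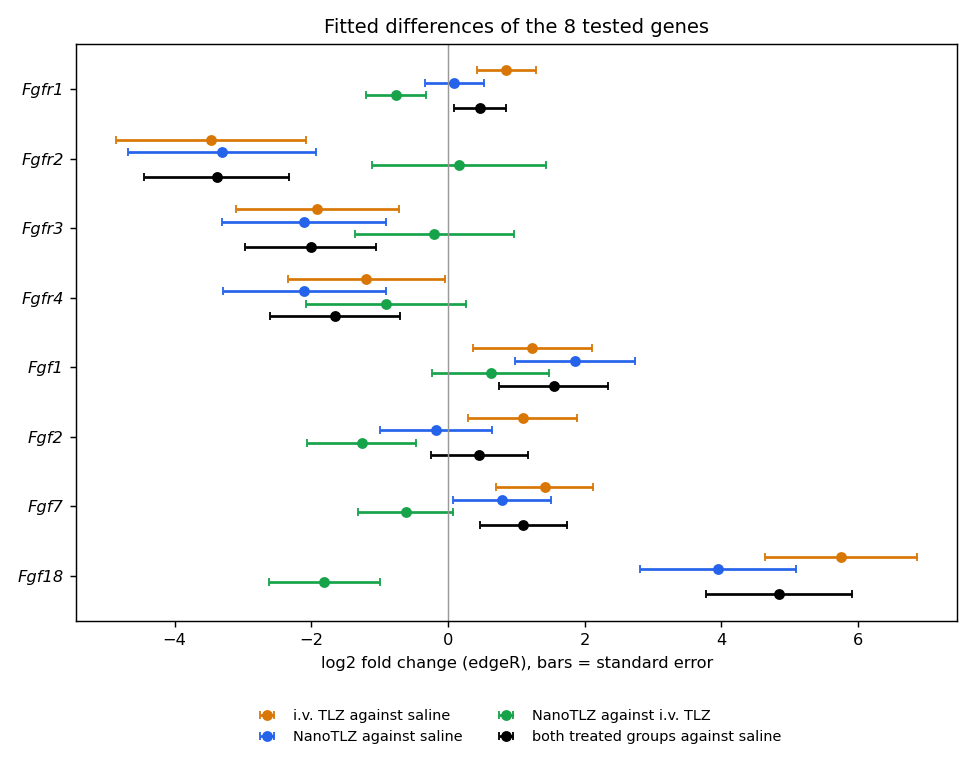
Points give the edgeR log2 fold change of each of the 8 tested members in the 4 comparisons. Bars give the approximate standard error computed from the F statistic. Fgf18 lies farthest above 0, at 5.75 for i.v. TLZ against saline, and Fgfr2 farthest below, at -3.47, and the latter value rests on saline tumor 3.

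**Figure D4:**
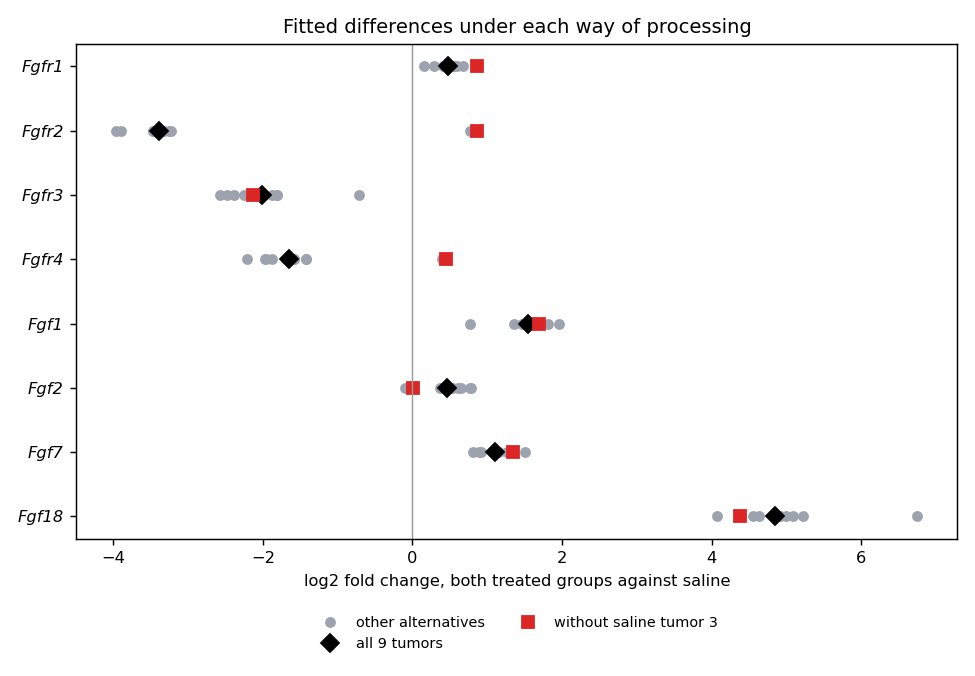
Each point gives the log2 fold change of both treated groups against saline for 1 member under 1 way of processing, with the fit of all 9 tumors as a black diamond and the fit without saline tumor 3 as a red square. Without that tumor Fgfr2 moves from -3.39 to 0.86 and Fgfr4 from -1.65 to 0.45. Fgf18 stays above 4, but it had 0 counts in that tumor, so leaving it out is no check on its estimate.

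Of the 17 other FGF genes, 5 passed the filter, and 0 of the 5 had an adjusted p under 0.05 in any comparison by edgeR or DESeq2. For both treated groups 2 were above and 1 below saline at an unadjusted p under 0.05, and with saline tumor 3 left out 6 passed the filter and 1, Fgf9, was above saline at that threshold. For this and the lists that follow, the share of all tested genes at that threshold was 13.1%, with 760 above and 1312 below saline, and it was 9.27% without saline tumor 3. Fgf9, a secreted ligand with mesenchymal and epithelial roles, was 0.172, 0.381 and 0.184 CPM in saline, 1.89, 0.656 and 0.866 CPM in i.v. TLZ and 0.674, 0.982 and 1.91 CPM in NanoTLZ. All 6 treated tumors lay above the saline tumors, as was the case for 2.81% of all tested genes. The log2 fold change for both treated groups was 2.21 (SE 0.64, adjusted p = 0.284 by edgeR). Fgf9 had 3, 8 and 4 counts in the saline tumors, and like Fgf18 it passed the filter on low counts only through the treated tumors. Fgf11, an intracellular FGF homologous factor, had the highest level per kb of this list, at 1.67 CPM per kb. It was 1.74 to 3.49 CPM in saline and 3.57 to 11.3 CPM in the treated tumors, again without overlap, with a log2 fold change of 1.29 (SE 0.47, adjusted p = 0.312 by edgeR). Fgf13, of the same intracellular group, was 8.12 CPM in saline tumor 3 and 0.229 to 0.920 CPM in the other 8 tumors, with a log2 fold change of -2.04 (SE 0.85, adjusted p = 0.357 by edgeR), and it was 0.63 without saline tumor 3.

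Co-receptors and binding proteins carry or present FGFs at the cell surface. Of 18 genes on this list 16 were tested, 8 had estimates above 0 and 8 below 0 for both treated groups, 1 had an unadjusted p under 0.05, and 0 were called by edgeR or DESeq2. The median log2 fold change was 0.07, compared with -0.06 over all tested genes. With saline tumor 3 left out 11 were above and 5 below, the median was 0.58, compared with 0.03, and 2 had an unadjusted p under 0.05, Fgfbp1 above and Fgfrl1 below saline, both named after their values were seen, while Gpc1 did not. The glypican gene Gpc1 was 108 to 284 CPM in saline and 221 to 528 CPM in the treated tumors (log2 fold change 0.88, SE 0.38, adjusted p = 0.371), the perlecan gene Hspg2 had a log2 fold change of 1.03 (SE 0.51, adjusted p = 0.414) and the syndecan gene Sdc3 one of 0.65 (SE 0.33, adjusted p = 0.422 by edgeR). The treated tumors overlapped with saline for all of these. For Gpc1 this held only through i.v. TLZ tumor 3, at 221 CPM. The NanoTLZ tumors, at 348, 463 and 342 CPM, lay above all saline tumors for that gene, as was the case for 7.82% of all tested genes. The most abundant gene per kb was Sdc4, at 243 CPM per kb, with an estimate of -0.09 (SE 0.29).

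All 13 heparan sulfate enzymes were tested. For both treated groups 9 had estimates above 0 and 4 below, with a median log2 fold change of 0.27, 1 had an unadjusted p under 0.05, and 0 were called by edgeR or DESeq2. Ext1, which builds the heparan sulfate chain, was 60.7 to 183 CPM in saline and 168 to 329 CPM in the treated tumors (log2 fold change 0.89, SE 0.37, adjusted p = 0.357), and it was the gene with an unadjusted p under 0.05. With saline tumor 3 left out this was Hs2st1 instead, at -1.10, and Ext1 was at 0.58. Hs2st1, a sulfotransferase, was 398 CPM in saline tumor 1 and 100.5 to 201 CPM elsewhere (-0.76, SE 0.36, adjusted p = 0.397), and Sulf1, which removes sulfate groups, was 12.98 to 36.6 CPM in saline and 20.9 to 125 CPM in the treated tumors (1.08, SE 0.53, adjusted p = 0.413 by edgeR). The related Sulf2 was the most abundant per kb, at 66.6 CPM per kb.

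All 19 adaptors and effectors of the receptors were tested. In both treated groups 5 had estimates above 0 and 14 below, with a median of -0.23, 1 had an unadjusted p under 0.05, and 0 were called by edgeR or DESeq2. With saline tumor 3 left out 9 were above and 10 below, and 0 had an unadjusted p under 0.05. Braf, which encodes a kinase of the ERK cascade, had a log2 fold change of -0.46 (SE 0.23, adjusted p = 0.417) and Map2k1, which encodes MEK1, one of 0.47 (SE 0.25, adjusted p = 0.443 by edgeR).

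Feedback inhibitors and targets of ERK signaling read out the pathway below the receptors. Of 20 genes on the list 19 were listed and tested, 5 had estimates above 0 and 14 below for both treated groups, the median was -0.23, 4 had an unadjusted p under 0.05, 2 in each direction, against 13.1% of all tested genes, and 0 were called by edgeR or DESeq2. Il17rd, an inhibitor of FGF signaling also called Sef, was 2.29, 4.38 and 3.21 CPM in saline, 7.42, 23.3 and 3.79 CPM in i.v. TLZ and 6.45, 8.84 and 13.8 CPM in NanoTLZ (log2 fold change 1.68, SE 0.60, adjusted p = 0.307). Dusp6, the ERK phosphatase that is a widely used readout of FGF signaling, was 228, 243 and 398 CPM in saline, 106, 217 and 153 CPM in i.v. TLZ and 112, 205 and 168 CPM in NanoTLZ (-0.86, SE 0.31, adjusted p = 0.310 by edgeR). All 6 treated tumors lay below the saline tumors for Dusp6, while for Il17rd the i.v. TLZ group overlapped with saline. The share of all tested genes with every treated tumor below saline was not computed. With saline tumor 3 left out the Dusp6 estimate was -0.54 and its unadjusted p was no longer under 0.05, and the genes below saline at that threshold were Spred1 and Phlda1, named after their values were seen. Spred1 was also below saline at that threshold with all 9 tumors, without overlap (-0.56, SE 0.23, adjusted p = 0.357 by edgeR). Fosl1, an AP-1 subunit, was 2.43 to 27.9 CPM in saline and 33.9 to 67.7 CPM in the treated tumors, without overlap (1.64, SE 0.61, adjusted p = 0.329 by edgeR). Treated tumors lay wholly above saline for 2.81% of all tested genes. Ccnd1, the cyclin D1 gene and the most abundant of the list per kb, had an estimate of -0.09 (SE 0.35). The genes of this list thus had estimates on both sides of 0. Of the inhibitors with an unadjusted p under 0.05 by edgeR, Dusp6 and Spred1 were below 0 and Il17rd above.

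**Figure D5:**
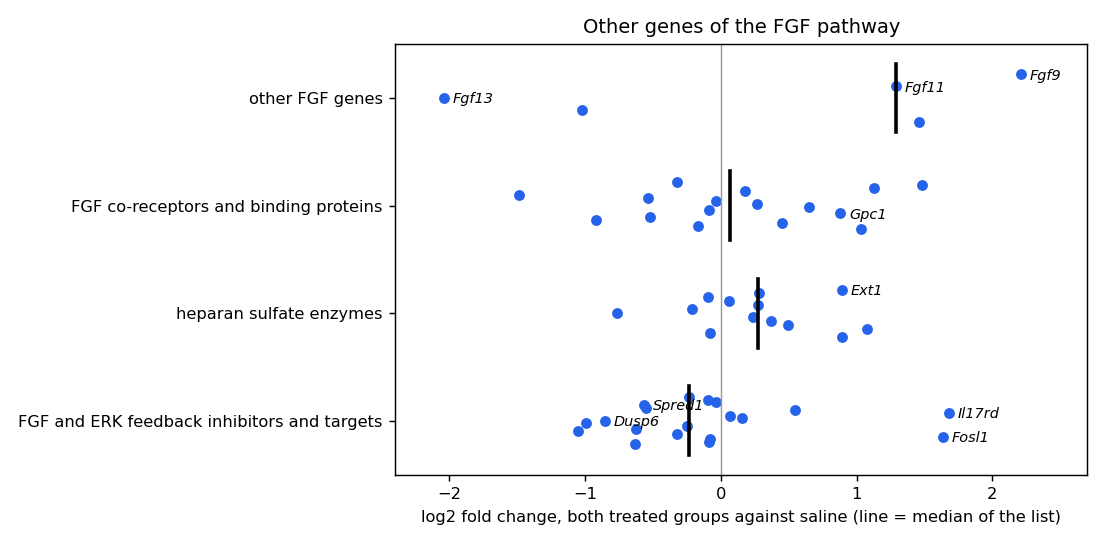
Each point is the edgeR log2 fold change of 1 tested gene of 4 pathway lists for both treated groups against saline, the black lines are the list medians, and genes with an unadjusted p under 0.05 are named. The medians run from -0.23 for the feedback genes to 1.29 for the 5 other FGF genes, and 0 genes shown had an adjusted p under 0.05.

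Other marker lists were measured in the same tumors. Proliferation genes summed to 1525, 848 and 2505 CPM in saline tumors 1, 2 and 3, to 450.3, 576 and 889 CPM in the i.v. TLZ tumors and to 749, 628 and 673 CPM in the NanoTLZ tumors. All 12 had estimates below 0 for both treated groups, 10 with an unadjusted p under 0.05, against 13.1% of all tested genes, and 0 with an adjusted p under 0.05 by edgeR. All 12 were also below 0 without saline tumor 3, where 5 had an unadjusted p under 0.05, against 9.27%. DESeq2 on all 9 tumors called 2, Mki67 and Top2a. Mki67, the most abundant, was at 940.0 CPM in saline tumor 3 and 54.3 to 286 CPM elsewhere, and Top2a was at 241 to 429 CPM in saline and 71.2 to 158 CPM in the treated tumors. Skeletal muscle genes summed to 33.4, 206 and 731 CPM in the saline tumors and to 13.8 to 35.1 CPM in the treated tumors. Of 10 muscle genes 9 were tested, 9 had estimates below 0 and 2, Myh4 and Myl1, were called for both treated groups by edgeR, and 7 by DESeq2 on all 9 tumors. The same 2 were called by edgeR with saline tumor 3 left out. Myh4 and Myl1 were chosen after their values were seen. Acta1, the most abundant, and Ckm were highest in saline tumor 3, at 231 and 28.7 CPM, and Acta1 was 0 to 0.466 CPM in the treated tumors. The sum was highest in the tumor with the highest Fgfr2 and Fgfr4, and the part of muscle in those levels was not tested.

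Luminal markers summed to 4313 to 9219 CPM, and all 10 were tested. For both treated groups 2 had an unadjusted p under 0.05, or 3 with saline tumor 3 left out, where Krt19 was added, 0 were called by edgeR and 2, Elf5 and Ehf, by DESeq2 on all 9 tumors. The luminal transcription factor genes Elf5 and Ehf, chosen after their values were seen, were 66.8 to 104 CPM and 265 to 327 CPM in saline and 31.1 to 52.9 CPM and 119 to 201 CPM in the treated tumors. Endothelial markers summed to 80.2 to 264 CPM, with Vwf the most abundant at 4.36 to 64.8 CPM, Pecam1 at 18.02 to 48.03 CPM and Cdh5 at 14.4 to 44.4 CPM. All 8 were tested, 8 had estimates above 0 for both treated groups (6 with saline tumor 3 left out), 0 had an unadjusted p under 0.05, and 0 were called by edgeR or DESeq2. Adipocyte markers summed to 148 CPM in NanoTLZ tumor 1 and 12.96 to 55.8 CPM elsewhere. Of the 8 adipocyte genes 4 were tested, and for both treated groups 0 had an unadjusted p under 0.05 and 0 were called by edgeR or DESeq2. The defining marker Adipoq was 2.84 CPM in that tumor and 0 to 0.642 CPM in the others, Fabp4 was 36.5 CPM there and 3.77 to 28.3 CPM elsewhere, and Lpl, the most abundant, was 80.1 CPM there. Fgf7 was 0.626 CPM in that tumor and highest in i.v. TLZ tumor 1.

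Across the 9 tumors the genes most like each member were ranked by Pearson correlation of log2 CPM, as a description that counts the groups and the deviating tumors alike. For Fgfr1 they were Gm16907 (r = 0.971), Ybx2 (0.929) and Stac2 (0.925). For Fgfr2 they were Fam172a (0.974), Cnih2 (0.970) and Exosc7 (0.969), which were 0.891, 0.821 and 0.863 over the 8 tumors without saline tumor 3. For Fgfr3 they were Nsun7 (0.930), Tarbp2 (0.925) and Rps24-ps3 (0.913). Nsun7 lies on the same chromosome as Fgfr3, chromosome 5. For Fgfr4 they were Nsun2 (0.974), Nup153 (0.946) and Gtpbp4 (0.943), all 3 on chromosome 13 as Fgfr4 is, and 0.953, 0.915 and 0.921 without saline tumor 3.

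Among the ligands, Fgf1 was most like Ifit3 (r = 0.983), Ebf3 (0.967) and Trbc2 (0.962). Fgf2 was most like Klhl21 (0.931), Ctnnbip1 (0.929) and Cdh23 (0.923), the first 2 of them on chromosome 4. Fgf7 was most like Rem1 (0.935), Gm26964 (0.925) and Nxph4 (0.924), and Rem1 shares chromosome 2 with it. Fgf18 was most like AU018091 (0.962), Hoxc9 (0.941) and Src (0.940). These are the highest values among 15821 genes over 9 tumors, and nothing is said of shared control.

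Among the members themselves, after the pair Fgfr2 and Fgfr4, the highest correlation over the 9 tumors was that of Fgfr1 and Fgf18 (Pearson r = 0.674), which were both highest in i.v. TLZ tumor 2. The lowest was that of Fgfr2 and Fgf2 (-0.557). The next receptor and ligand pair after Fgfr1 and Fgf18 was Fgfr1 and Fgf2 (0.314). Over the 8 tumors without saline tumor 3 these 3 values were 0.860, 0.0144 and 0.535, in the same order.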

How the data were processed

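The table the authors deposited holds unnormalized RNAseq read counts for each gene in 9 tumors. The submitters' processing notes name TopHat2, DESeq2 and the mm10 build, without versions or roles. The counting program, annotation and strand setting were not given in the sources used here. Each tumor was assigned to its group by its labels, and all 9 columns were used. Of 35275 identifiers, 34490 matched GENCODE M21 (GRCm38), which gave symbols and exon lengths. Gene positions and start regions are from RefSeq GRCm38.p6.

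Genes were filtered with filterByExpr (minimum count 10, minimum total 15), which kept 15821 genes and 8 of the 9 FGF members. CPM values were computed from the deposited counts with TMM factors. The quasi-likelihood model of edgeR 4.0.16 (R 4.3.3, limma 3.58.1; estimateDisp, glmQLFit, glmQLFTest) had a coefficient for each treatment and used all 9 tumors, with Benjamini-Hochberg adjustment over all tested genes and a threshold of 0.05. For both treated groups, the mean of the treated coefficients was compared with saline. The SE of an edgeR estimate is approximate, as edgeR gives none. It was computed as the absolute log2 fold change divided by the square root of the F statistic. Log2 CPM used a prior count of 2.

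The members and gene lists were chosen with earlier results of these data known. The text names all members, for each tested member the 3 most correlated genes, from each pathway list the 3 genes with the smallest p and the most abundant per kb, and from each cell type list the most abundant gene and the first 2 markers. Genes outside this rule were chosen after their values were seen, as were the neighbours of Fgfr1 and Fgfr2. A few results that the rule would name are not reported here. Alternatives were DESeq2 1.42.0 on all 9 tumors and on the groups compared, edgeR on the groups compared, normalization by RLE or by the upper quartile, the test without a filter, at least 10 counts in every tumor, robust dispersions, each tumor left out, and, chosen after seeing the data, saline tumor 3 and i.v. TLZ tumor 2 left out together. Tables and figures were made in Python 3.11.15 with pandas 2.3.3, numpy 2.4.6, matplotlib 3.10.9 and scipy 1.17.1.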

Additional observations from a re-analysis of the deposited data

How the results depend on the processing

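No FGF member was called by edgeR under any alternative run. With DESeq2 on all 9 tumors 194 genes were called for i.v. TLZ, 110 for NanoTLZ, 273 for both treated groups and 3 for NanoTLZ against i.v. TLZ, with 1 member, Fgf18, for i.v. TLZ and 1, Fgf18, for both treated groups. DESeq2 on the groups compared only called 92, 171 and 21 genes for i.v. TLZ, NanoTLZ and NanoTLZ against i.v. TLZ, with 1 member each for i.v. TLZ (Fgf18) and NanoTLZ (Fgf1). The cause was not tested. edgeR on the groups compared only called 0 genes for NanoTLZ. Without the filter on low counts edgeR called 5 genes for i.v. TLZ, 6 for NanoTLZ and 33 for both treated groups, and with at least 10 counts in every tumor 1 gene for both treated groups. Leaving out 1 tumor at a time gave 0 to 3 calls for NanoTLZ (3 without saline tumor 1, 0 without saline tumor 2, i.v. TLZ tumor 3 or NanoTLZ tumor 2) and 0 to 18 for both treated groups (18 without saline tumor 1). For both treated groups 0 were called when saline tumor 2, any i.v. TLZ tumor or NanoTLZ tumor 2 or 3 was left out, and 1 without NanoTLZ tumor 1. Fits of the groups compared only gave no separate result for both treated groups, since all groups enter that comparison.

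Of 536 recomputed fold changes of single members, 506 kept their sign and their side of the threshold, 26 turned and 4 passed the threshold. With 1 tumor left out, Fgfr2 ranged from -4.04 to 0.77 for i.v. TLZ, -3.87 to 0.95 for NanoTLZ, -3.96 to 0.86 for both treated groups and -0.069 to 0.39 for NanoTLZ against i.v. TLZ. Fgfr4 ranged from -1.76 to 0.89 for i.v. TLZ, -2.71 to -0.00087 for NanoTLZ and -2.21 to 0.45 for both treated groups, Fgf1 from -0.33 to 1.77 for i.v. TLZ, and Fgfr1 from -0.23 to 0.49 for NanoTLZ. Fgf2 ranged from -1.12 to 0.20 for NanoTLZ and -0.01 to 0.78 for both treated groups, and Fgfr3 from -1.15 to 0.29 for NanoTLZ against i.v. TLZ. Without saline tumor 3 and i.v. TLZ tumor 2, a choice made after seeing the data, 2 genes were called for NanoTLZ and 1 for both treated groups. In that fit Fgfr2 was 0.59, 0.95 and 0.77 for i.v. TLZ, NanoTLZ and both treated groups, Fgfr4 was 0.80, 0.0053 and 0.40, Fgf1 was 1.90 for i.v. TLZ, Fgf2 was -0.10 for both treated groups and Fgfr3 was 0.31 for NanoTLZ against i.v. TLZ.

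No paired analysis was possible because no replicate number in the labels ties tumors across groups. Fgf2, Fgf7, Fgf10 and Fgf18 had 95, 114, 14 and 94 counts over all tumors, which limits their precision. With at least 10 counts required in every tumor, the members fitted were Fgfr1, Fgfr2 and Fgfr3.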

Other observations

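Fgf3, with counts too low for the filter of the edgeR fit, and Fgf15 were not called by DESeq2 or by edgeR without the filter. They were highest in saline tumor 3, at 1.70 and 2.11 CPM, against 0 to 0.0477 CPM and 0 to 0.812 CPM in the other 8 tumors. Fgfbp1, which encodes a carrier of secreted FGFs, ranged from 0.858 CPM in saline tumor 2 to 38.6 CPM in i.v. TLZ tumor 1, with 15.8 CPM in NanoTLZ tumor 1. These 2 treated tumors also had the 2 highest Fgf1 levels. These 3 genes were chosen after their values were seen.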
